A study of Mus musculus with 6 samples.

Results

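The genes described here build microfibrils and elastic fibres, the stretchable part of the extracellular matrix. The set holds 10 genes of the 53801 in the deposited count table, listed by symbol: the fibrillins Fbn1 and Fbn2, the microfibril-associated genes Mfap2, Mfap4 and Mfap5, elastin (Eln), and the fibulins Fbln1, Fbln2, Fbln5 and Efemp2. They were chosen with the result of this comparison already known, partly because Mfap4 was among the clearest differences, so their values and calls between genotypes are given as a description and support nothing as a test. All 10 passed the filter on low counts.

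The groups are cultures from Ythdf1 knockout mice, with 3 libraries, and cultures from wild-type mice, with 3 libraries. Ythdf1 encodes a cytoplasmic protein that binds m6A-methylated RNA. All cultures were stromal vascular fraction cells (the progenitors, fibroblasts, vascular and immune cells of fat) isolated from inguinal white fat and driven toward adipocytes in vitro for 4 days. The series calls the replicates biological. The labels do not give the kind of Ythdf1 allele, the part of the gene removed, the sex or age of the mice, or whether animals were pooled.

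Fibrillins polymerise into microfibrils, thin beaded filaments that also hold latent TGF-beta complexes outside the cell. Where elastic fibres form, the monomer tropoelastin is laid down on these filaments with the help of fibulins and is then cross-linked by lysyl oxidases. In fat, fibroblasts and adipocyte progenitors make much of this matrix, and Mfap5 is widely used as a marker of interstitial progenitors.

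Library totals ran from 16619605 to 20089138 counts, so that 3 counts corresponded to 0.149 to 0.181 CPM, the count scaled to the library's size. The targeted gene Ythdf1 was at 45.1, 42.8 and 43.5 CPM in knockout cultures, against 63.0, 62.1 and 60.4 CPM in wild-type cultures; counts are for the whole gene and check the labels only in part. The labelled cell type was present in both groups: the 8 adipocyte markers summed to between 15178 and 20692 CPM in knockout libraries and to between 3606 and 5439 CPM in wild-type libraries. The library names end in L0 (knockout replicate 2, wild-type replicate 3) or L1, and the labels do not say what this means.

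Of the 10 genes, 9 were lower in knockout cultures at a Benjamini-Hochberg adjusted p under 0.05 in the edgeR quasi-likelihood test, and 0 were higher, where 21.7% of all 14816 genes tested were lower and 22.6% higher. The same 9 had all 3 knockout libraries below all 3 wild-type libraries, which held for 27.3% of genes tested (27.9% had them all above). DESeq2 gave the same counts, 9 lower and 0 higher, and at an unadjusted p under 0.05 edgeR gave 9 lower and 0 higher. Because this contrast was used to choose the genes, nothing is read from these counts. The median log2 fold change (knockout over wild type) of the 10 genes was -1.10, beside 0.0084 over all genes tested. Together they took 0.546% ± 0.0349 of scaled counts in knockout libraries and 1.07% ± 0.0225 in wild-type libraries (SD, n = 3 each). In bulk RNA, fewer cells of one type and less RNA per cell cannot be told apart.

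**Figure D1:**
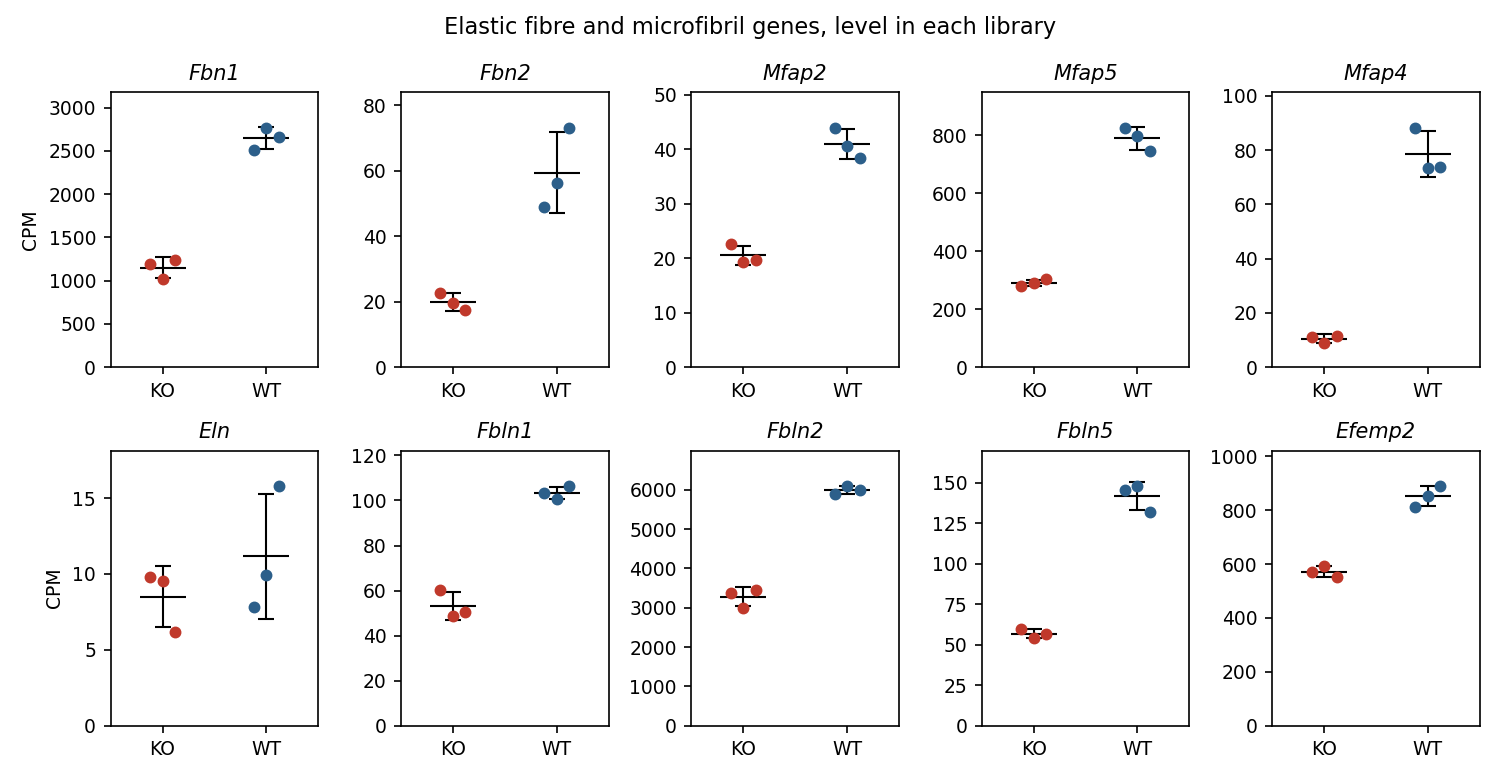
Level of each gene in CPM (vertical axes from 0, scaled separately per gene) in the 3 Ythdf1 knockout (KO, red) and 3 wild-type (WT, blue) libraries; points are libraries, horizontal lines the means and bars the SD. For 9 genes every knockout point lies under every wild-type point, and for Eln the groups overlap, with 6.19 to 9.79 CPM in knockout and 7.80 to 15.8 CPM in wild type.

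Sequences upstream of 3 fibulin genes are shown because these members of one family were all lower in knockout cultures and yet differed in size of change, Efemp2 having the smallest and Fbln5 the largest fold of the fibulins. RefSeq promoter sequences (GRCm38.p6) were matched for 6 of the 10 genes, and the 250 bases before the first listed start are printed 5′ to 3′ on the gene's strand. Capitals mark CAGAC or its reverse complement GTCTG, the letters of a SMAD site; SMAD proteins carry the TGF-beta signal into the nucleus. The windows are chr12:101819120-101819369 on the minus strand for Fbln5, chr15:85205699-85205948 on the plus strand for Fbln1 and chr19:5473696-5473945 on the plus strand for Efemp2.
Fbln5: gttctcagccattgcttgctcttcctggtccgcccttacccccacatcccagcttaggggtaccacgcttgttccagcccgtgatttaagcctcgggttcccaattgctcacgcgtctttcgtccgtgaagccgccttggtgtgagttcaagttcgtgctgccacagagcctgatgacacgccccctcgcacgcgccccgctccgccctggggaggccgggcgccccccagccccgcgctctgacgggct
Fbln1: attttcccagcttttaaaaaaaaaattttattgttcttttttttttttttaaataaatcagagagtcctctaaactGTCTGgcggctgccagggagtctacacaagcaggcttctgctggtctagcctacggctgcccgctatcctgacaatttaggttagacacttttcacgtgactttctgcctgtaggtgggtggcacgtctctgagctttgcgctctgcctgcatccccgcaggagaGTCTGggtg
Efemp2: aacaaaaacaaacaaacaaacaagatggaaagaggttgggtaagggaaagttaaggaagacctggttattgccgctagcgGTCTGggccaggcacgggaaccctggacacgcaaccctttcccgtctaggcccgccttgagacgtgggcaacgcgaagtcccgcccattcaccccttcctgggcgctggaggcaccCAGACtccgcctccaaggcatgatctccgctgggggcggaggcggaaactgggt

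The SMAD letters occurred 2 times each in the Fbln1 and Efemp2 windows and 0 times in the Fbln5 window shown. This depends on the start chosen: the window of a second Fbln5 start held 2 matches, and those of 2 other Efemp2 starts held 0. The window of Fbln2, a fibulin gene also lower in knockout cultures (log2 fold change -0.87), was not printed and held 0 matches. Over both strands the SMAD letters were present in 5 of the 11 windows listed, from 4 of the 6 genes. The 2 Fbln1 windows overlap and hold the same matches. Of all 32851 promoter windows of that length, 42.2% held the letters. A TEAD site (CATTCC, 12.6% of all windows) was found in 1 of the 11 windows, an alternative start of Mfap2. The TATA box (TATAAA, 12.4% of all windows), the AP-1 site (TGANTCA, 6.75%) and the CArG box (1.47%) were found in none of the 11. A match or its lack describes only the letters in these windows.

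The fibrillins form the backbone of the microfibril. Fbn1 (ENSMUSG00000027204, chromosome 2, 125300594 to 125507993, minus strand, GRCm38) encodes fibrillin-1, the main fibrillin after birth. It was at 1193, 1017 and 1242 CPM in knockout cultures, against 2515, 2766 and 2665 CPM in wild-type cultures. The knockout values were all well under the lowest wild-type value, with a log2 fold change of -1.20 ± 0.11 (SE). Fbn2 (ENSMUSG00000024598, chromosome 18), the fibrillin best known from embryonic matrix, was at 22.7, 19.6 and 17.4 CPM in knockout cultures, against 48.8, 56.3 and 73.1 CPM in wild-type cultures. Wild-type replicate 3 was the highest of the libraries, the groups did not overlap, and the log2 fold change was -1.58 ± 0.15. Per kilobase of exon, Fbn1 exceeded Fbn2 by a factor of 57.3, 56.5 and 77.8 in knockout libraries, against 56.2, 53.5 and 39.7 in wild-type libraries, so Fbn1 made up nearly all fibrillin transcript in both genotypes.

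Mfap2 and Mfap5 encode the small microfibril-associated glycoproteins MAGP-1 and MAGP-2, which bind fibrillin. Mfap2 (ENSMUSG00000060572, chromosome 4, 141010418 to 141015984, plus strand) was at 22.5, 19.4 and 19.6 CPM in knockout cultures, against 43.9, 40.5 and 38.3 CPM in wild-type cultures. The groups lay far apart for the small spread among libraries, with a 1.995-fold lower mean level in knockout (log2 fold change -0.997 ± 0.10). Mfap5 (ENSMUSG00000030116, chromosome 6, 122505845 to 122529290, plus strand) was at 280.5, 289.6 and 303.2 CPM in knockout cultures, against 826, 799 and 747 CPM in wild-type cultures. The log2 fold change of Mfap5 was -1.44 ± 0.09. The ratio of Mfap5 to Mfap2 per kilobase was 4.20, 5.04 and 5.22 in knockout libraries, against 6.35, 6.65 and 6.58 in wild-type libraries. Mfap5 was thus the more abundant of the pair in every library, by less in the knockout.

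Mfap4 (ENSMUSG00000042436, chromosome 11, 61485431 to 61488900, plus strand) encodes a glycoprotein with a fibrinogen-related domain that binds fibrillin and tropoelastin. It had the lowest log2 fold change of the set, -2.89 ± 0.13, a 7.44-fold lower level in knockout. Its raw counts were 205, 154 and 237 in knockout libraries, against 1559, 1189 and 1289 in wild-type libraries. As CPM this was 11.3, 8.75 and 11.5 in knockout, against 88.2, 73.5 and 73.7 in wild type. The highest knockout library lay far under the lowest wild-type library. Of the genes tested, 0.810% had a lower log2 fold change than Mfap4. An 89-base stretch of Mfap4 exons overlaps Mapk7 on the opposite strand. Longer opposite-strand overlaps were found for Fbn1 (2442 bases, with Gm9913), Eln (267), Efemp2 (173) and Fbn2 (129). The strand setting of the counting is not given in the sources used here, and the effect of these overlaps on the counts was not tested.

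Eln (ENSMUSG00000029675, chromosome 5, 134702593 to 134747323, minus strand), the gene for tropoelastin itself, differed from the other 9 in that its groups overlapped. It was at 9.79, 9.55 and 6.19 CPM in knockout cultures, against 7.80, 9.95 and 15.8 CPM in wild-type cultures, so the groups overlapped. The log2 fold change was -0.40 ± 0.27 and did not pass the threshold. With 1 library left out it ran from -0.61, without wild-type replicate 1, to -0.064, without wild-type replicate 3. Leaving out knockout replicate 3 gave -0.21. Its spread within a genotype was the widest of the set, with a coefficient of variation of 23.6% in knockout and 36.9% in wild type. For the other 9 genes it was 3.60% to 14.7% in knockout and 1.61% to 20.9% in wild type. Eln had 178, 168 and 127 counts in knockout libraries, against 138, 161 and 276 counts in wild-type libraries.

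Fibulins are glycoproteins that join microfibrils, elastin and cell surfaces. Fbln2 (ENSMUSG00000064080, chromosome 6, 91212455 to 91272540, plus strand) was at 3368, 2999.7 and 3454 CPM in knockout cultures, against 5893, 6086 and 6003 CPM in wild-type cultures (log2 fold change -0.87 ± 0.11). It held 59.3% to 60.5% of the CPM of all 10 genes in knockout libraries and 55.7% to 56.2% in wild-type libraries. Fbln1 (ENSMUSG00000006369, chromosome 15, 85205949 to 85286535, plus strand), found in basement membranes and elastic fibres, was at 60.2, 48.8 and 50.6 CPM in knockout, against 103, 101 and 106 CPM in wild type (log2 fold change -0.96 ± 0.09). Neither gene's groups overlapped.

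Fbln5 and Efemp2 (fibulin-4) are the fibulins that mice need to form elastic fibres; both bring lysyl oxidase family enzymes to tropoelastin. Fbln5 (ENSMUSG00000021186, chromosome 12, 101746565 to 101819055, minus strand) was at 59.9, 54.4 and 56.3 CPM in knockout cultures, against 146, 148 and 132 CPM in wild-type cultures (log2 fold change -1.32 ± 0.09). Efemp2 (ENSMUSG00000024909, chromosome 19, 5473954 to 5482517, plus strand) was at 572, 592 and 550.4 CPM in knockout, against 813, 853 and 888 CPM in wild type (log2 fold change -0.58 ± 0.09). Efemp2 had the smallest difference of the 9 genes whose groups did not overlap, a 1.49-fold lower level in knockout, and Fbln5 was 2.49-fold lower.

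**Figure D2:**
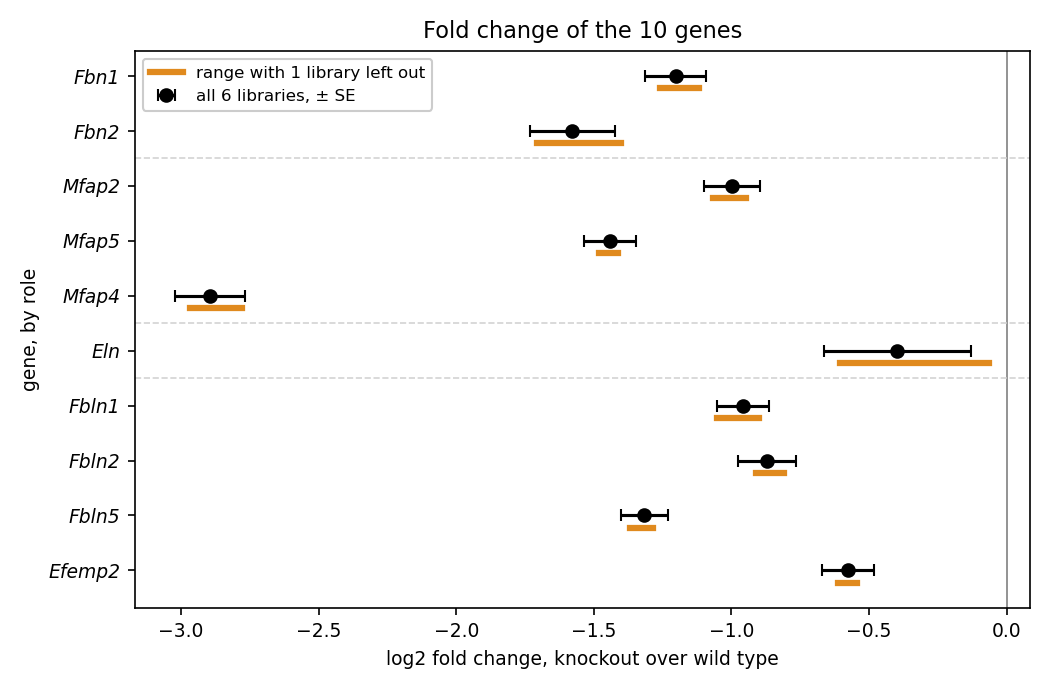
Log2 fold change, knockout over wild type (horizontal axis), of the 10 genes grouped by role from fibrillins at the top to fibulins at the bottom; black points and bars are the value from all 6 libraries ± SE, and orange lines span the values with 1 library left out. Mfap4 lies lowest at -2.89, 8 genes lie between -1.58 and -0.58, and the line of Eln runs from -0.61 to -0.064.

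Scaled by exon length, the levels of the 10 genes covered a wide range in each genotype. In knockout cultures the order was Fbln2 (514 ± 37.9 CPM per kilobase), Efemp2 (151 ± 5.43), Fbn1 (94.9 ± 9.76), Mfap5 (81.1 ± 3.19), Mfap2 (16.9 ± 1.46), Fbln1 (12.2 ± 1.41), Fbln5 (8.23 ± 0.407), Mfap4 (5.48 ± 0.802), Fbn2 (1.51 ± 0.202) and Eln (1.05 ± 0.248; SD, n = 3). Of these neighbours, Fbn1 and Mfap5 had overlapping ranges. In wild-type cultures Fbln2 (941 ± 15.2 CPM per kilobase) was followed by Efemp2 (225 ± 9.93), Mfap5 (220.3 ± 11.2) and Fbn1 (218 ± 10.4), whose ranges overlapped as neighbours. Below them came Mfap4 (40.8 ± 4.38), Mfap2 (33.8 ± 2.32), Fbln1 (23.7 ± 0.634), Fbln5 (20.5 ± 1.24), Fbn2 (4.49 ± 0.942) and Eln (1.38 ± 0.509).

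Mfap4 held rank 8 of 10 in knockout, against rank 5 in wild type, the widest shift of rank. Fibulin transcripts made up 77.3% ± 0.275 of the length-scaled sum in knockout and 70.0% ± 0.707 in wild type (SD, n = 3 each). The share of the 3 microfibril-associated genes was 11.7% ± 0.412 in knockout, against 17.1% ± 1.11 in wild type. Elastin stayed near the bottom in both, with 0.119% ± 0.0315 of the sum in knockout and 0.0798% ± 0.0295 in wild type. With the longest transcript as the length, Eln moved above Fbn2 in knockout and Mfap5 above Fbn1.

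**Figure D3:**
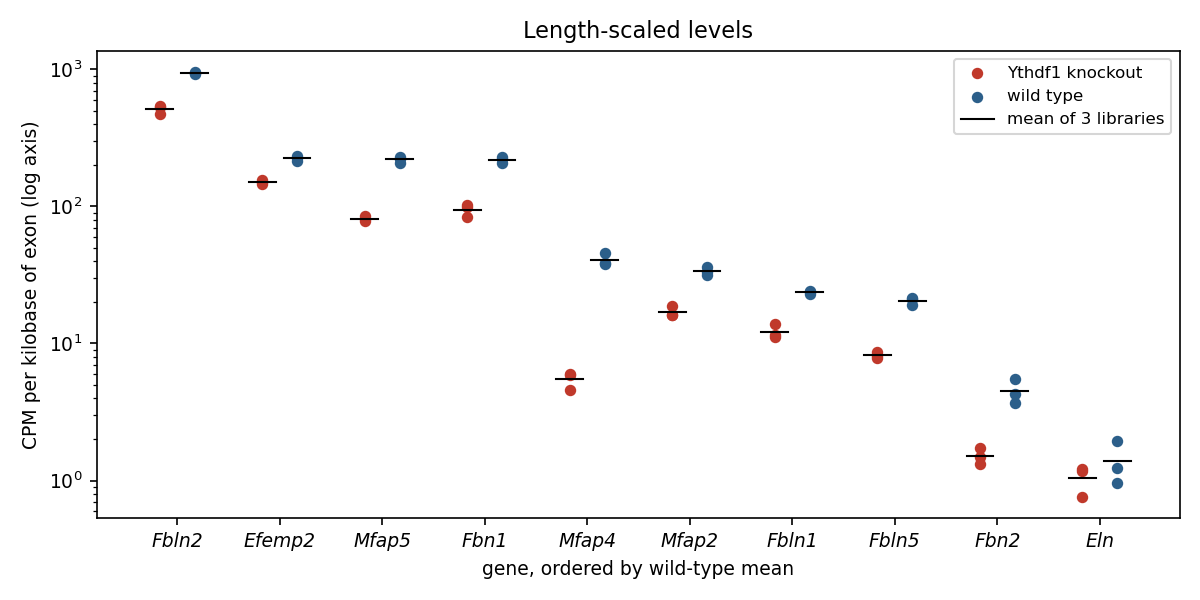
Level per kilobase of exon (CPM per kilobase, log axis) of the 10 genes, ordered by the wild-type mean, with knockout libraries (red) left of wild-type libraries (blue) and lines at the means of 3 libraries. Fbln2 is highest in both genotypes (514 in knockout, 941 in wild type) and Eln lowest (1.05 in knockout, 1.38 in wild type); the widest gap between genotypes is that of Mfap4.

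Profiles were compared by the root mean square distance between log2 CPM values over the 6 libraries, each gene centred on its own mean. Among 9161 protein-coding genes with a mean of at least 10 CPM, the nearest to Mfap4 were Pappa (distance 0.100), Dpysl3 (0.126) and the smooth muscle actin gene Acta2 (0.175). Acta2 was at 84.7, 80.7 and 105 CPM in knockout cultures, against 881, 757 and 584 CPM in wild-type cultures. Among the 8 other genes of the set that reach that level, the nearest to Mfap4 was Fbn2, at a distance of 0.714. The profiles most like Eln were those of Prrg3 (0.119), the lipid transporter gene Abca8a (0.132) and the RNA-editing gene Adarb1 (0.166). Such distances over 6 libraries of 2 genotypes reflect mainly the genotype difference and the spread of single libraries.

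Other genes of elastic-fibre assembly, binding and turnover were taken as 8 lists of 49 genes, of which 43 passed the filter on low counts. In edgeR's quasi-likelihood test, adjusted over all genes tested, 20 were lower in knockout cultures, 5 were higher and 18 did not pass, beside 21.7% lower and 22.6% higher over all genes tested. Their median log2 fold change was -0.39.

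The lysyl oxidases cross-link tropoelastin and collagen, and 4 of the 5 fell, where 21.7% of all genes tested did. Lox was at 5191, 4492 and 4852 CPM in knockout cultures, against 16179, 16741 and 16233 CPM in wild-type cultures (log2 fold change -1.76 ± 0.11, edgeR adjusted p = 8.5e-07). Loxl3, Loxl2 and Loxl4 fell by 0.87, 0.67 and 0.41 on the log2 scale. Loxl1, the family member that works with fibulin-5, was at 778, 717 and 769.9 CPM in knockout, against 799.5, 910.2 and 1010 CPM in wild type. Its groups did not overlap, but it missed the threshold (edgeR adjusted p = 0.070), which it passed under DESeq2 (adjusted p = 0.033) and without wild-type replicate 1 (edgeR adjusted p = 0.022).

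Latent TGF-beta binding proteins sit on fibrillin microfibrils. Ltbp2, which binds fibrillin-1 and fibulin-5, was at 92.0, 74.5 and 135 CPM in knockout cultures, against 866, 789.7 and 690.5 CPM in wild-type cultures (log2 fold change -2.96 ± 0.21, edgeR adjusted p = 6.8e-06). Ltbp1 fell as well, to 11.2 ± 1.60 CPM in knockout, against 44.3 ± 3.76 CPM in wild type (log2 fold change -1.98 ± 0.12, edgeR adjusted p = 8.5e-07). The ligand gene Tgfb3 fell by 0.39 on the log2 scale, while Tgfb1, Tgfb2 and Ltbp4 did not pass. Ltbp3 was called higher by 0.23 on the log2 scale (edgeR adjusted p = 0.0475), and this call ended in 10 of 13 alternative settings, with an adjusted p of up to 0.150 without wild-type replicate 1.

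Emilins are glycoproteins at the interface of elastin and microfibrils and were listed with multimerins. This list gave 0 calls among 3 tested in edgeR and in DESeq2. Over all genes tested, edgeR called 21.7% lower and 22.6% higher. At an unadjusted p under 0.05, edgeR had 1 of the 3 higher and 0 lower. Emilin1 was at 276, 271 and 327.5 CPM in knockout cultures and 252, 274 and 265 CPM in wild-type cultures, which overlap. Among other fibulin-type genes, Efemp1 (fibulin-3) fell to 270 ± 6.14 CPM in knockout, against 409 ± 44.0 CPM in wild type (log2 fold change -0.60 ± 0.10, edgeR adjusted p = 0.00056). Hmcn1, also called lower, had only 3, 1 and 3 counts in knockout libraries, against 26, 28 and 24 counts in wild-type libraries. Fbln7 and Hmcn2 did not pass.

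The ADAMTS and ADAMTS-like list holds secreted proteins tied to fibrillin microfibril assembly, and 2 of 6 tested fell, where 21.7% of all genes tested did. Adamts6 was at 10.6 ± 2.92 CPM in knockout, against 36.3 ± 6.70 CPM in wild type (log2 fold change -1.77 ± 0.21, edgeR adjusted p = 0.00011). Adamts10, a protease that binds fibrillin-1, was at 32.6 ± 2.07 CPM in knockout, against 61.6 ± 7.58 CPM in wild type (log2 fold change -0.92 ± 0.11, edgeR adjusted p = 3.8e-05). Adamtsl2, Adamtsl4, Adamtsl5 and Thsd4 did not pass.

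Fkbp10, an endoplasmic reticulum chaperone of tropoelastin and collagen, fell to 120.3, 123 and 129 CPM in knockout cultures, against 286, 291 and 271 CPM in wild-type cultures (log2 fold change -1.19 ± 0.08, edgeR adjusted p = 1.6e-06). In the elastin receptor complex, the lysosomal genes Neu1 and Ctsa rose by 0.52 and 0.40 on the log2 scale (edgeR adjusted p = 0.0012 and 0.0066), and Glb1 did not pass. Of 7 tested integrin subunits that can bind RGD ligands, such as those in fibrillin-1 and fibulin-5, 5 fell and 0 rose in edgeR. DESeq2 gave the same counts, and at an unadjusted p under 0.05 edgeR had 6 lower and 0 higher. Over all genes tested, edgeR called 21.7% lower and 22.6% higher. Itgb1 was at 696, 682 and 755 CPM in knockout, against 1581, 1501 and 1289 CPM in wild type (log2 fold change -1.03 ± 0.11, edgeR adjusted p = 2.0e-05). Itgb5, Itga5 and Itgav fell by 0.93, 0.87 and 0.83 on the log2 scale, and Itgb3 and Itgb8 did not pass. The fifth, Itga8 (log2 fold change -1.89 ± 0.48, and -1.29 without wild-type replicate 1), was low, with 33, 14 and 14 counts in knockout libraries, against 121, 42 and 48 counts in wild-type libraries.

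Of 7 elastin-degrading proteases tested, 3 were lower and 2 higher, beside 21.7% lower and 22.6% higher over all genes tested. Mmp2, Ctsl and Mmp14 fell by 0.56, 0.57 and 0.32 on the log2 scale. Mmp9 was called higher, at 30.5, 34.8 and 13.4 CPM in knockout, against 9.90, 5.50 and 2.91 CPM in wild type (log2 fold change 2.09 ± 0.53, edgeR adjusted p = 0.021). The cathepsin gene Ctss was also called higher, at 18.2, 18.3 and 54.8 CPM in knockout, against 10.9, 6.43 and 6.74 CPM in wild type (log2 fold change 1.92 ± 0.55, edgeR adjusted p = 0.034). The log2 fold change of Ctss was 1.18 without knockout replicate 3. The macrophage elastase gene Mmp12 did not pass (edgeR adjusted p = 0.092; 0.0496 without knockout replicate 3, with a log2 fold change of 1.02 in place of 2.01), at 9.51, 8.35 and 35.3 CPM in knockout, against 7.18, 3.58 and 2.46 CPM in wild type. Ctss and Mmp12 were highest in knockout replicate 3, and so were the 6 macrophage markers, which summed to 212, 222 and 597 CPM in knockout libraries, against 67.8 to 139 CPM in wild-type libraries. With 1 library or suffix group left out, or under another setting, the call for Ctss ended in 7 of 13 settings (adjusted p up to 0.168 with L1 libraries alone) and that for Mmp9 in 4 (up to 0.122, also with L1 libraries alone). The part of the macrophage markers in these values was not tested.

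**Figure D4:**
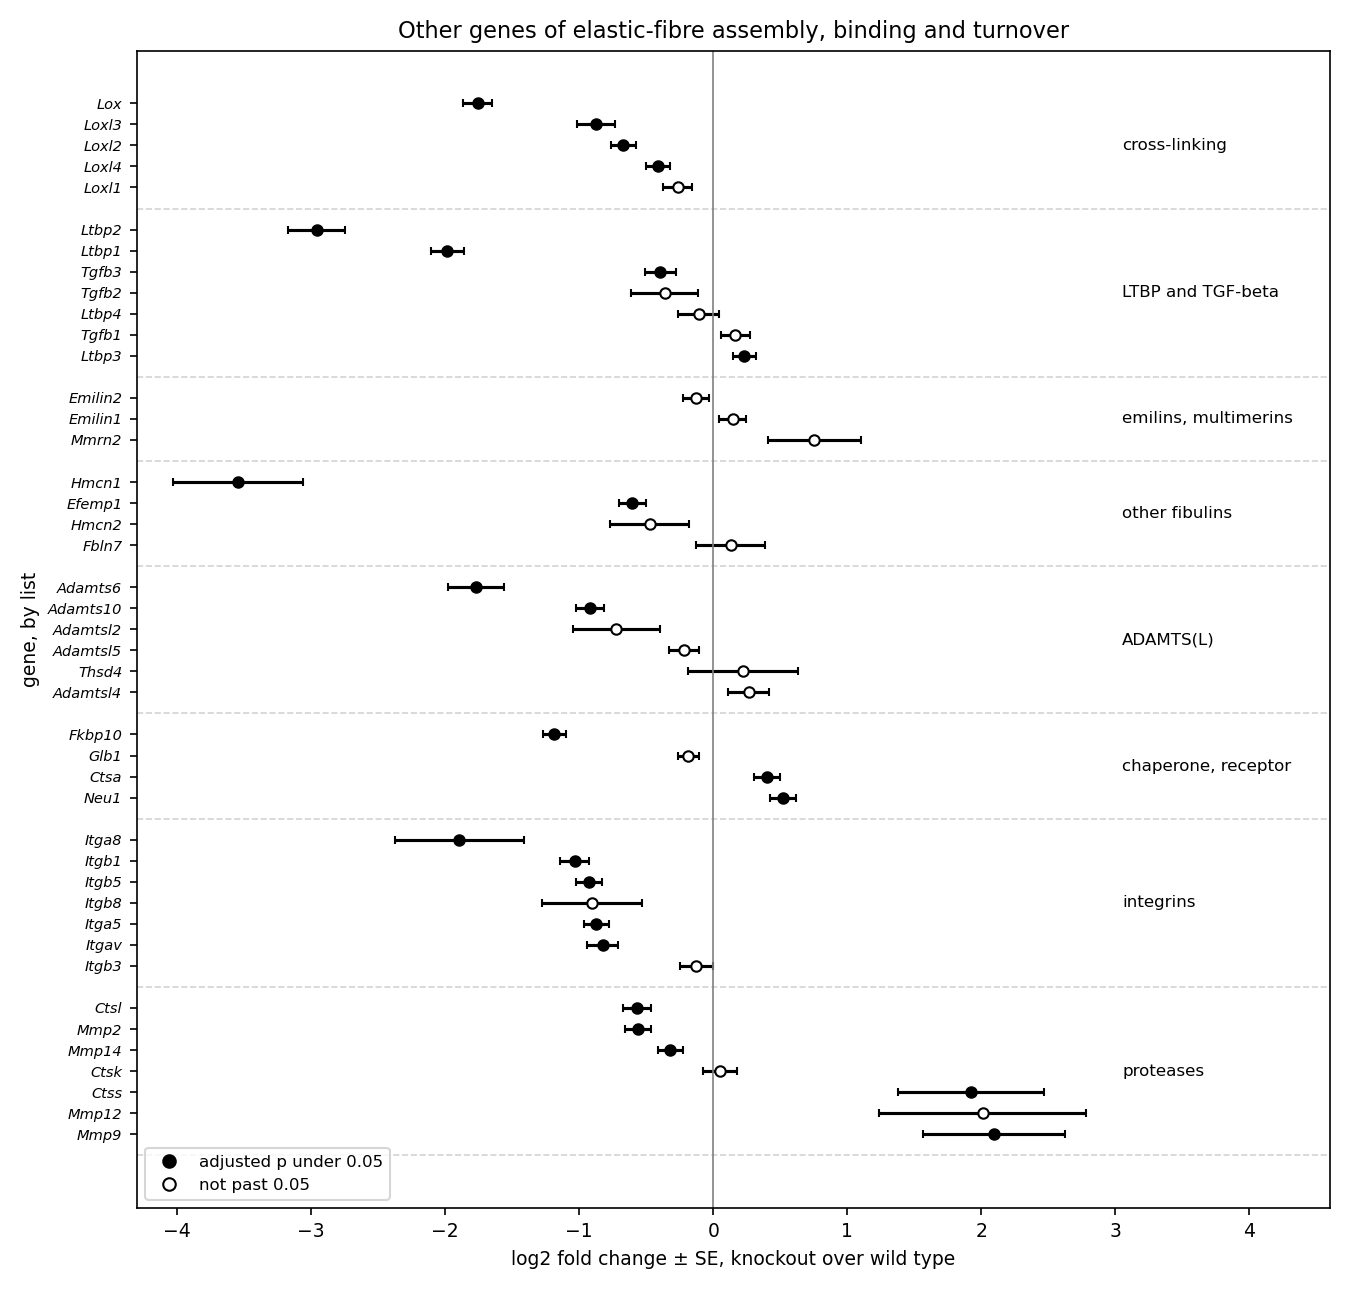
Log2 fold change ± SE, knockout over wild type (horizontal axis), of the 43 tested genes of the 8 lists, sorted within each list; filled points have an edgeR adjusted p under 0.05 and open points do not. Filled points lie left of 0 for 20 genes, including Ltbp2 at -2.96 and Lox at -1.76, and right of 0 for 5.

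Markers of other cell types also moved with genotype, where edgeR called 21.7% of all genes tested lower and 22.6% higher in knockout cultures. All 8 smooth muscle and myofibroblast markers were lower in knockout cultures in edgeR's test, and their CPM summed to between 100.2 and 122 in knockout libraries and between 649 and 977 in wild-type libraries. All 8 adipocyte markers were higher. Of 8 progenitor and fibroblast markers, 5 were lower and 0 higher in edgeR, in DESeq2 and at an unadjusted p under 0.05, with sums of 3918 to 4046 CPM in knockout and 4281 to 4350.4 CPM in wild type. Of 6 macrophage markers, 5 were higher in edgeR and 6 in DESeq2, with 0 lower in either and 0 lower at an unadjusted p under 0.05. Calls went both ways in pericyte (1 higher, 1 lower of 4 tested) and Schwann markers (2 higher, 1 lower of 3 tested). Endothelial markers had 1 higher of 6 tested in edgeR and 0 higher in DESeq2. Mesothelial markers had 0 calls of 2 tested, also in DESeq2 and at an unadjusted p under 0.05. Pericyte sums were 96.4 to 128 CPM in knockout and 54.2 to 68.5 CPM in wild type. Schwann sums were 29.7 to 31.7 CPM in knockout and 21.2 to 24.0 CPM in wild type. Endothelial and mesothelial sums overlapped between genotypes. Of these lists, 2 of 6 pericyte, 4 of 6 mesothelial and 2 of 5 Schwann markers stayed under 1 CPM in every library. No listed marker was at 0 in all libraries. The part of these shifts in the values of the 10 genes was not tested.

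Within the libraries of one name suffix, all 10 genes kept a negative log2 ratio. With suffix L0 (1 library per genotype) the ratio was -3.07 for Mfap4, -0.72 for Eln and between -1.90 and -0.59 for the other 8. With suffix L1 (2 libraries per genotype) it was -2.82 for Mfap4, -0.15 for Eln and between -1.48 and -0.57 for the other 8.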

How the data were processed

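Cultures of 3 Ythdf1 knockout and 3 wild-type replicates were profiled by RNA-seq. The deposited values are raw counts per Ensembl gene, made by the authors with STAR and featureCounts on mm10/GRCm38 per the submitters' processing notes; for versions, annotation and strand setting nothing is given in the sources used here. Per the labels' protocols, libraries were rRNA-depleted and read as 150 bp pairs. Symbols, coordinates and exon lengths came from GENCODE mouse release 21, which held 53706 of 53801 identifiers.

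Counts were fitted with edgeR 4.0.16 (R 4.3.3): filterByExpr (minimum count 10, minimum total 15), TMM, robust legacy quasi-likelihood F test, 2-sided, Benjamini-Hochberg adjustment over all 14816 genes tested, threshold 0.05. CPM use TMM-scaled totals. Each edgeR SE was calculated as the absolute log2 fold change divided by the square root of the F statistic. Floors and SEs cover what these 6 libraries show. The fit was tested on simulated data. Replicates of a genotype were distinct libraries (chi-square per degree of freedom 10.2 to 26.3, against 160 to 242 between genotypes).

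The 10 genes, the other lists and the naming rules were chosen with earlier results of these data known. The rule named all 10 genes, up to 4 passing genes per list by smallest p (else the most abundant), and 3 nearest profiles each for Mfap4 and for the gene with the highest log2 fold change, Eln. Other list members were named after their values were seen. Alternatives were RLE factors, no filter, DESeq2 1.42.0, the replicate block, the library suffix as covariate or L1 alone, normalization without the 50 most abundant genes, each library left out, and transcript length in place of exon length.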

Additional observations from a re-analysis of the deposited data

How the results depend on the processing

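Under all 13 alternative settings, 9 of the 10 genes were lower and 0 higher past the threshold. Over all genes the counts were 3219 lower and 3342 higher, and with 1 library left out 2535 to 3279 lower and 2741 to 3395 higher. Of the 43 other genes, 20 were lower (19 to 22 with 1 library left out) and 5 higher. The number higher was 6 with DESeq2 and 6 with the library suffix as covariate. It was 4 with RLE factors and 4 with L1 libraries alone. Without the low-count filter it was 3, with the replicate block 3, and with 1 library left out 2 to 5. It was 2 without knockout replicate 2 or without wild-type replicate 2, and 3 without wild-type replicate 1. The higher calls lost in any setting were among Ltbp3, Mmp9 and Ctss, and the cause was not tested. Calls also ended for Itga8 without knockout replicate 2 (edgeR adjusted p = 0.053) and for Mmp14 without knockout replicate 1 (0.053) or wild-type replicate 2 (0.057). Genes short of the threshold passed it in some settings, Adamtsl4 in 4, Itgb8 in 3, Mmp12 in 3 and Loxl1 in 2 of the 13. Log2 fold changes of genes not past the threshold changed sign as follows: Ltbp4 (-0.11) to 0.015 with L1 libraries alone and between -0.21 and 0.018 with 1 library left out, Thsd4 (0.22) to between -0.037 and 0.51 with 1 library left out, and Ctsk (0.05) to -0.039 with L1 libraries alone and between -0.047 and 0.21 with 1 library left out.

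Same-numbered libraries had correlations of -0.154, 0.0195 and -0.156 between their deviations from the genotype means across genes. Libraries did not all correlate best with their own number. Deviations from a mean of 3 libraries are tied together, so these correlations cannot tell whether the cultures were paired. With the replicate block 2993 genes were lower and 3136 higher. Depth limits genes with few counts, such as Hmcn1 with 3, 1 and 3 counts in knockout libraries.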
